A study of Mus musculus with 20 samples.

Results

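The genes of the proteasome, the complex that degrades ubiquitin-tagged proteins, were followed across 20 mouse livers. The members were the genes whose symbol is Psma, Psmb, Psmc or Psmd followed by a number. The rule found 39 of the 46078 genes in the count table: 7 alpha subunits of the core (Psma1 to Psma7), 4 structural beta subunits (Psmb1 to Psmb4), 3 catalytic beta subunits (Psmb5 to Psmb7), 3 immunoproteasome beta subunits (Psmb8 to Psmb10), 2 core subunits known from other tissues (Psma8 and Psmb11), 6 ATPases (Psmc1 to Psmc6) and 14 non-ATPase genes of the regulatory particle (Psmd1 to Psmd14, of which Psmd5, Psmd9 and Psmd10 encode chaperones that assemble it). Of these, 38 passed the filter on low counts. Psmb11, a core subunit of the thymus, had no count in any of the 20 livers and was not tested.

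The livers came from male mice on a 129/C57BL/6 background, at least 9 weeks old, that were kept under calorie restriction and first fed the defined control diet. They were then moved to the control diet again, to a diet without cysteine (no-Cys) or to a diet without tryptophan (no-Trp), and livers were taken 2 days later. Mice lacked Cse, the enzyme that makes cysteine from cystathionine (gene Cth), in all tissues (Cse-/-), or were heterozygous controls (Cse+/-, which the deposited labels call WT). There were 2 Cse+/- livers on the control diet, 4 Cse+/- and 4 Cse-/- livers on no-Cys, 3 Cse+/- and 3 Cse-/- livers on no-Trp, and 4 Cse-/- livers on no-Trp with L-buthionine sulfoximine (BSO), which blocks the first step of glutathione synthesis. No Cse-/- liver on the control diet was analysed here. Each library was bulk poly(A) RNA of a separate mouse.

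The proteasome has a barrel-shaped core, built of alpha and beta rings, and a regulatory particle that caps it. The alpha rings gate the barrel and the inner beta rings hold the cutting sites, while the regulatory particle recognises ubiquitin, unfolds the substrate with its ring of ATPases and feeds it into the core. In cells exposed to interferon the catalytic subunits Psmb5, Psmb6 and Psmb7 are replaced in new particles by Psmb8, Psmb9 and Psmb10, and such immunoproteasomes supply peptides for presentation by class I molecules. Transcription of the standard subunits is known to be raised together by the factor NRF1 (gene Nfe2l1) when proteasome capacity is short.

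Library totals ran from 11785740 to 57986121 counts. Values are given as CPM, counts scaled to the size of the library and corrected for RNA composition with the TMM factors of edgeR. Cth was at 6.37 to 14.4 CPM in the 11 Cse-/- livers and at 88.4 to 332 CPM in the 9 Cse+/- livers, with no overlap, as the labels give the genotypes. All 7 hepatocyte markers were at 616 CPM or more in every liver. Their summed level was 41240 to 69430 CPM in Cse-/- no-Cys livers and 85300 to 109400 CPM in Cse+/- no-Cys livers. This gap lay mostly in albumin (Alb), and its part in the results below was not tested. Between these 2 groups, 4 of the 7 markers had a log2 fold change above 0 (median 0.02). At the threshold given below, Cps1 was higher (0.58) and 3 were lower, with Alb lowest (-1.26), against 11.6% and 12.2% of all genes. Of the 4 Cse-/- no-Cys livers, 1 (column av08) stood nearer the Cse+/- livers, with Alb at 49490 CPM against 25510 to 28860 CPM in the other 3. Without it the main counts below were 13 higher and 3 lower, against 14 and 3 with it.

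The subunits were expressed in every liver, and the 34 tested members other than the immunoproteasome and tissue-restricted subunits averaged 12.8 to 193.5 CPM. Per kilobase of annotated exon, the highest levels were those of Psmb4 (99.2 CPM per kb), Psma6 (86.3), Psmb6 (80.1) and Psmb5 (75.8), and the lowest were those of Psmd5 (4.201), an assembly chaperone of the ATPase ring, and Psmd10 (8.68), another such chaperone. Of the immunoproteasome subunits, Psmb8 (3.97 CPM per kb) and Psmb9 (2.74) lay below all of these, and Psmb10 (24.5) lay within their range. Psma8, a core subunit of germ cells, had 227 counts in all and a mean of 0.601 CPM, and its groups overlapped. The testis markers Tnp1, Prm1 and Tex101 summed to at most 0.0778 CPM in a liver.

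The first comparison asked what differs when neither the diet nor the body's own synthesis supplies cysteine, and set Cse-/- against Cse+/- livers on no-Cys. In the regulatory particle 13 of 20 genes rose and none fell, and the median log2 fold change of the 20 was 0.28. Without the 3 chaperones, a set chosen after the data were seen, 11 of 17 rose, with a median of 0.28. In the constitutive core 1 of 14 genes rose, Psmb5, and the median was 0.04. All 3 immunoproteasome subunits fell, with a median of -1.06. Together 14 of 38 members were called higher (36.8%) and 3 lower (7.89%), while over all 14759 genes tested 11.6% were called higher and 12.2% lower, the median being -0.01. A call here and below is an adjusted p under 0.05 in edgeR's quasi-likelihood test.

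**Figure D1:**
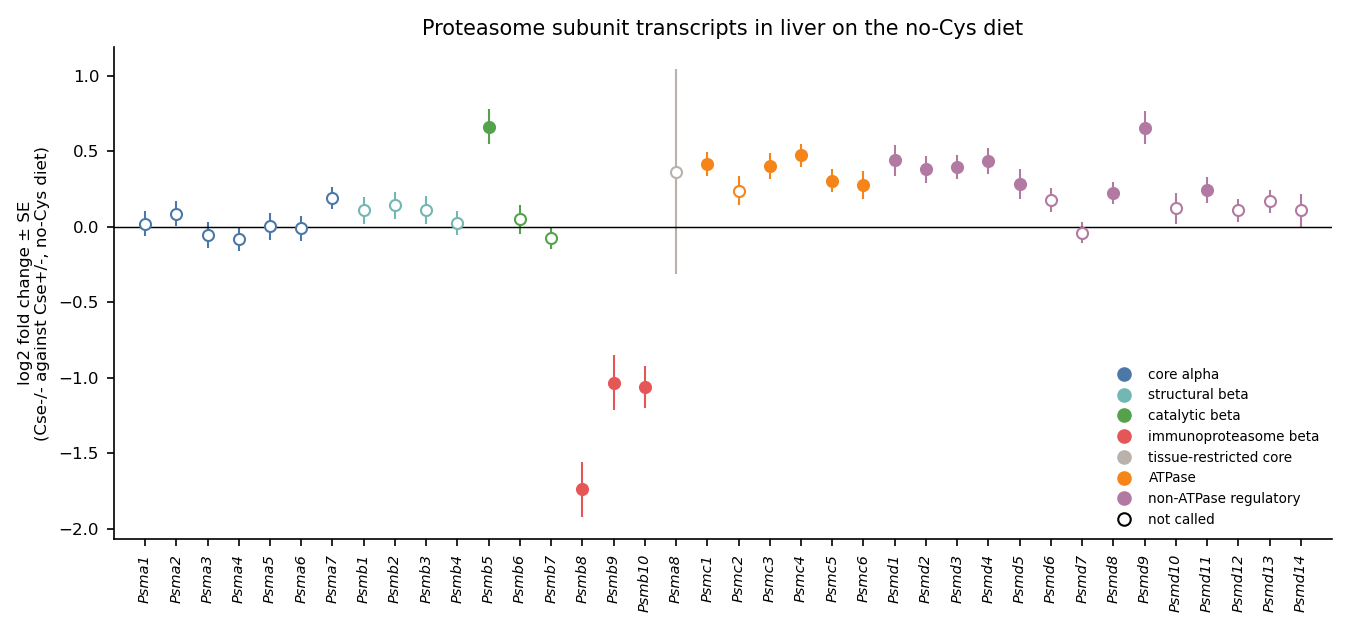
Log2 fold change (vertical axis, ± standard error) of each of the 38 tested members between Cse-/- and Cse+/- livers on the no-Cys diet, 4 livers in each group. Filled points were called and open points were not. Most Psmc and Psmd genes lie above 0, the alpha and structural beta subunits lie near 0, and Psmb8, Psmb9 and Psmb10 lie at -1.74, -1.03 and -1.06.

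Among the ATPases, 5 of 6 rose. Psmc4 was at 78.6, 83.9, 88.7 and 92.6 CPM in Cse+/- no-Cys livers and at 106, 121, 122 and 128.5 CPM in Cse-/- no-Cys livers. The groups did not overlap, and the log2 fold change was 0.47 ± 0.08 (SE, adjusted p = 0.000296). Psmc1 rose by 0.42, Psmc3 by 0.40 and Psmc5 by 0.30 on the same scale. Psmc6 was at 69.7, 71.5, 74.3 and 75.4 CPM in Cse+/- livers and at 78.6, 83.9, 94.7 and 94.95 CPM in Cse-/- livers. These groups did not overlap either, but the difference was among the smallest called (0.28 ± 0.09, adjusted p = 0.0371). Psmc2 was not called (0.24, 95% interval 0.04 to 0.44, adjusted p = 0.0761).

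Of the 14 non-ATPase genes, 8 rose. Psmd9, a chaperone that helps assemble the base of the regulatory particle, was at 58.9, 60.7, 66.3 and 70.3 CPM in Cse+/- no-Cys livers and at 75.1, 108, 108 and 113 CPM in Cse-/- no-Cys livers. The liver av08 was the low one, and still lay above every Cse+/- liver on no-Cys (log2 fold change 0.66 ± 0.11, adjusted p = 0.000353). On the control diet Psmd9 was at 88.9 and 95.8 CPM, above all 4 Cse+/- no-Cys livers and within the range of the Cse-/- no-Cys livers. The large scaffold subunits Psmd1 and Psmd2 rose by 0.44 and 0.38, the lid subunit Psmd3 rose by 0.40, and the ubiquitin receptor Psmd4 rose by 0.43. Psmd5 rose by 0.28 (adjusted p = 0.0466).

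The remaining calls of the regulatory particle were small. Psmd11, a lid subunit, was at 73.9, 78.5, 81.1 and 89.4 CPM in Cse+/- no-Cys livers and at 91.9, 95.8, 96.6 and 97.4 CPM in Cse-/- no-Cys livers, which did not overlap (0.24 ± 0.09, adjusted p = 0.0452). Psmd8, another lid subunit, was at 135.2, 135.8, 145.5 and 147 CPM against 143, 166, 167 and 182 CPM, and here 1 Cse-/- liver lay inside the range of the Cse+/- livers (0.22 ± 0.08, adjusted p = 0.0379). The 6 others were not called: Psmd6 (0.18), Psmd13 (0.17), Psmd10 (0.12), Psmd12 (0.11), Psmd14, the deubiquitinase of the lid (0.11), and Psmd7, its inactive partner (-0.04). Their 95% intervals reached 0.34 or less at the upper end. The 4 smallest calls of the regulatory particle (Psmc6, Psmd5, Psmd8 and Psmd11) were lost when any of several single livers of either genotype was left out, among them av02, av03, av06 and av07 for all 4. The other 13 calls of this comparison, Psmb5 and the immunoproteasome genes among them, were kept in every alternative run.

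**Figure D2:**
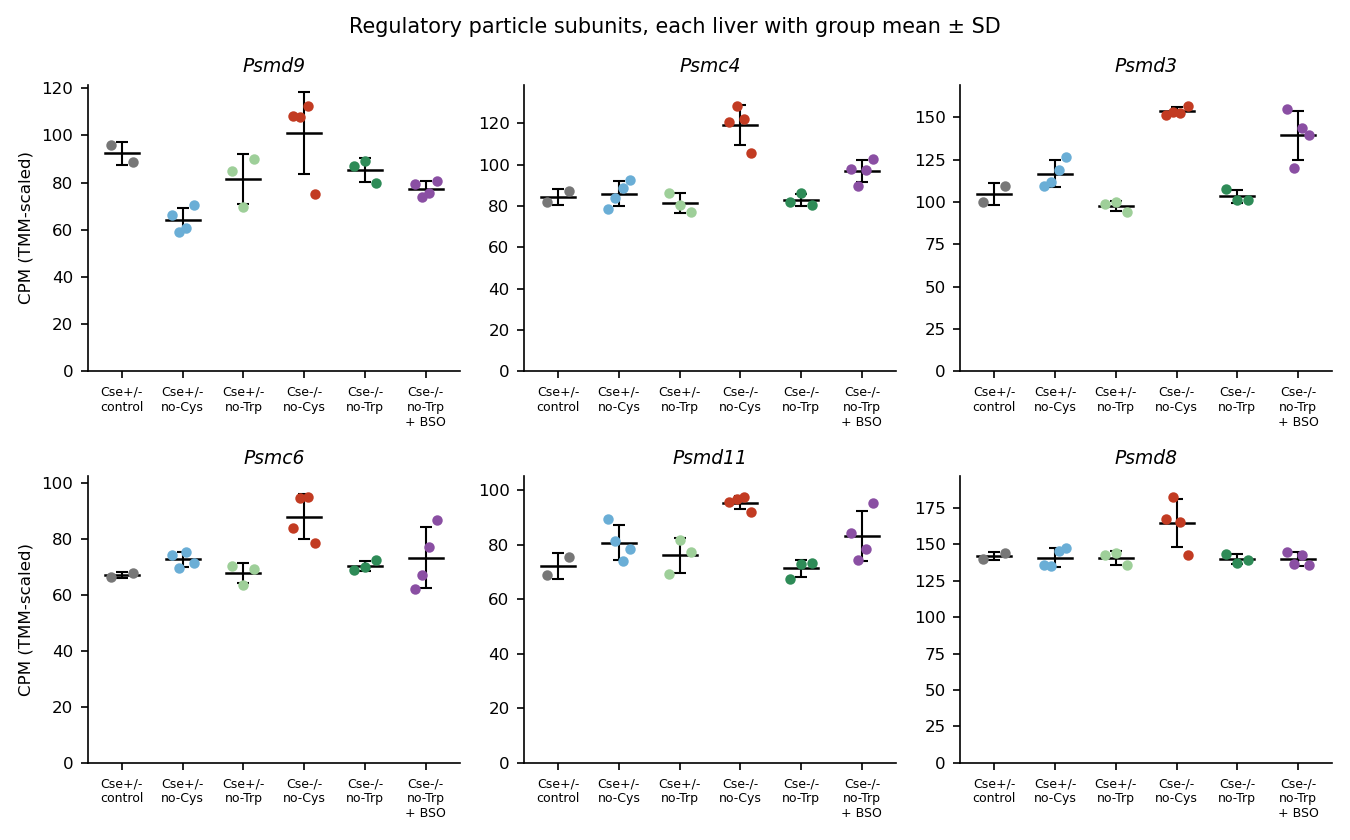
CPM of 6 regulatory particle genes in each of the 20 livers by group. Points are livers, and black lines give the group mean ± SD. The Cse-/- no-Cys livers have the highest group mean of all 6 groups for each gene, and the group means of Psmd8 lie closest together.

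In the core, none of the 7 alpha subunits was called: Psma1 (0.02), Psma2 (0.09), Psma3 (-0.05), Psma4 (-0.08), Psma5 (0.00), Psma6 (-0.01) and Psma7 (0.19, adjusted p = 0.0625). Neither was any of the structural beta subunits Psmb1 (0.11), Psmb2 (0.14), Psmb3 (0.11) and Psmb4 (0.02). Across these genes and the catalytic subunits Psmb6 and Psmb7, the 95% intervals of the log2 fold change ended at 0.34 or below. A rise as large as the fitted rise of Psmb5 or Psmd9 thus lay outside all 13 of them. A rise of 0.28, the median of the regulatory particle, lay inside the interval of Psma7, so rises of that size were not excluded throughout the core.

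Psmb5, which carries the chymotrypsin-like site that proteasome inhibitors block, was the core gene that rose. The gene lies at chr14:54614119-54618022 (GRCm38, minus strand). It was at 49.6, 51.1, 62.2 and 66.9 CPM in Cse+/- no-Cys livers and at 71.5, 91.3, 99.35 and 102 CPM in Cse-/- no-Cys livers. The groups did not overlap, and av08 was again the low liver (log2 fold change 0.66 ± 0.12, adjusted p = 0.000437, 1.58-fold). Psmb6, the caspase-like subunit, was at 124, 142, 144 and 168 CPM against 132, 144, 160 and 161 CPM. Psmb7, the trypsin-like subunit, was at 137.5, 151, 162 and 164 CPM against 139.8, 144.5, 149 and 149 CPM. In the other 12 livers Psmb6 lay between 144 and 174 CPM and Psmb7 between 138 and 160.1 CPM. For both of these the groups on no-Cys overlapped, with differences of 0.05 and -0.08 (95% intervals -0.15 to 0.24 and -0.23 to 0.08).

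The level of Psmb5 carries a limit. Of the 61-base words in its transcripts, 46.2% also occur in other annotated genes, most of them in Gm3375, and the share was 24.5% for Psmd9 (Gm26745), 42.6% for Psma5, 13.7% for Psmd2 and 10.9% for Psmb8 (Gm20496). How reads from such stretches were assigned was not tested, so the levels of these genes are uncertain. It was 0% for Psmc4, Psmc5, Psmc6, Psmd4 and Psmd8, which rose as well.

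The 20 regulatory particle genes summed to 1582 to 1744 CPM in Cse+/- no-Cys livers and to 1963 to 2191 CPM in Cse-/- no-Cys livers, while the 14 constitutive core genes summed to 1328 to 1621 CPM and to 1499 to 1612 CPM. The ratio of the sums was 1.27, 1.35, 1.36 and 1.40 in the 4 Cse-/- no-Cys livers. In the other 16 livers it lay between 1.04 and 1.21. Without the 3 chaperones it was 1.19 to 1.29 in the former and 0.959 to 1.12 in the latter. The lowest Cse-/- no-Cys value was that of av08.

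**Figure D3:**
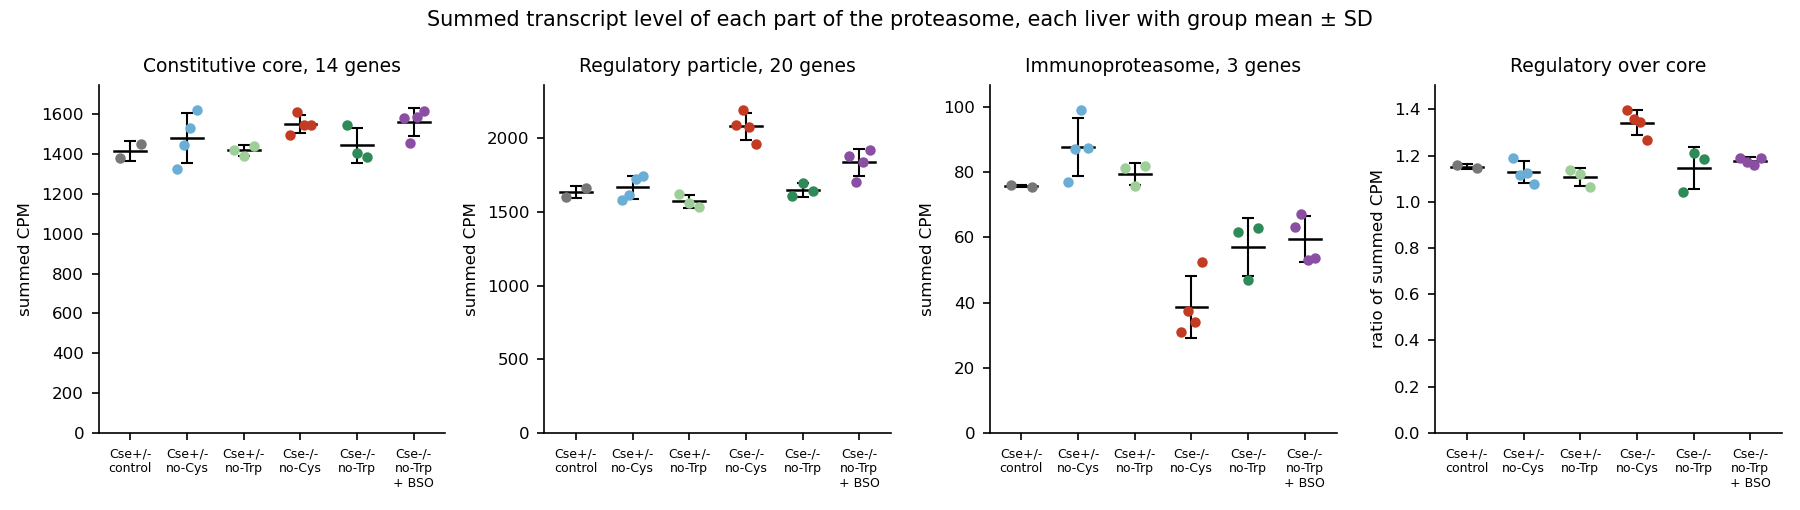
Summed CPM of the 14 constitutive core genes, the 20 regulatory particle genes and the 3 immunoproteasome genes, and the ratio of regulatory particle to core sums, in each of the 20 livers. Points are livers, and black lines give the group mean ± SD. The regulatory sums of the Cse-/- no-Cys livers (1963 to 2191 CPM) lie above those of every other liver, and their ratios (1.27 to 1.40) do too.

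Promoters are shown for both genes with the largest rise between genotypes on no-Cys and for Psmb6, which was not called. The standard subunits are known as targets of factors that bind the antioxidant response element. RefSeq windows of 300 bases (GRCm38.p6, from 250 bases before to 50 after the start) were found for 32 of the 39 members, and were searched on both strands for the core of that element, TGACNNNGC. It occurred in 5 of these 32 genes (15.6%), against 3781 of the 27025 genes with a window, a similar share. Both genes with the largest rise hold it close to the start, Psmb5 at 47 bases and Psmd9 at 31 bases before it, and so does Psmb6, at 9 bases before it. The other matches were in Psmc6 and Psmd12, at 227 and 247 bases. Of the 12 members called higher between genotypes on no-Cys that had a window, 3 held the match. It was held by 2 of the 16 not called and by none of the 3 called lower. Psmc1, Psmc4, Psmd1, Psmd2 and Psmd4 were called higher and had no match. A link between the match and the rise was not tested. The 150 bases before the start are given 5′ to 3′ on the strand of the gene, with the match in capitals. They lie at chr14:54617996-54618145 (minus strand) for Psmb5, at chr5:123228040-123228189 (plus strand) for Psmd9, whose start in RefSeq lies inside the longer gene of the GENCODE annotation (chr5:123169413-123250131), and at chr11:70525207-70525356 (plus strand) for Psmb6.
Psmb5: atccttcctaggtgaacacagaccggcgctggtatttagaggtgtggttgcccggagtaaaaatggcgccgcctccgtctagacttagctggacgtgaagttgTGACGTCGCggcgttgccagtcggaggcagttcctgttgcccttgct
Psmd9: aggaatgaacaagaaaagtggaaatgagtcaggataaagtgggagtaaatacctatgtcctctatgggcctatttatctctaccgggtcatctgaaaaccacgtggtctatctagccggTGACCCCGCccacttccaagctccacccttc
Psmb6: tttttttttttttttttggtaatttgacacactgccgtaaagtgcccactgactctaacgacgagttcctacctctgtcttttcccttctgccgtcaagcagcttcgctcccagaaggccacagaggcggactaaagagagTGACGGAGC

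These are matches of letters and not measured sites. The CCAAT box was present in 40.6% of the members with a window and in 41.1% of all genes with one.

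The immunoproteasome subunits fell in the same comparison, and by more than any other member. Psmb8 (chr17:34197721-34201454, plus strand) was at 17.3, 18.5, 18.8 and 25.7 CPM in Cse+/- no-Cys livers and at 4.90, 5.65, 5.71 and 7.89 CPM in Cse-/- no-Cys livers. The groups lay far apart (log2 fold change -1.74 ± 0.18, adjusted p = 2.87e-06). Psmb9 (chr17:34181987-34187764, minus strand) was at 12.1, 15.5, 16.9 and 18.3 CPM against 6.31, 6.45, 7.11 and 10.9 CPM, again without overlap and with av08 highest of the Cse-/- livers (-1.03 ± 0.18, adjusted p = 0.000494). Psmb10 (chr8:105935735-105938444, minus strand) was at 47.8, 50.4, 53.1 and 56.5 CPM against 19.7, 21.97, 24.7 and 33.5 CPM, with no overlap and av08 again the highest (-1.06 ± 0.14, adjusted p = 3.53e-05). On the control diet Psmb8 was at 17.1 and 18.2 CPM and Psmb10 at 45.9 and 48.7 CPM, above every Cse-/- no-Cys liver for both. Psmb9 was at 9.82 and 11.96 CPM on the control diet, which overlapped the Cse-/- no-Cys livers and lay below all 4 Cse+/- livers on no-Cys.

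Each of these subunits takes the place of 1 catalytic subunit, and per kilobase of exon Psmb8 made up 6.96 to 9.88% of Psmb8 and Psmb5 together in Cse+/- no-Cys livers and 1.41 to 2.85% in Cse-/- no-Cys livers. The share of Psmb9 with Psmb6 was 4.51 to 6.19% and 2.22 to 3.36%, and that of Psmb10 with Psmb7 was 39.4 to 41.2% and 20.99 to 31.75%.

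**Figure D4:**
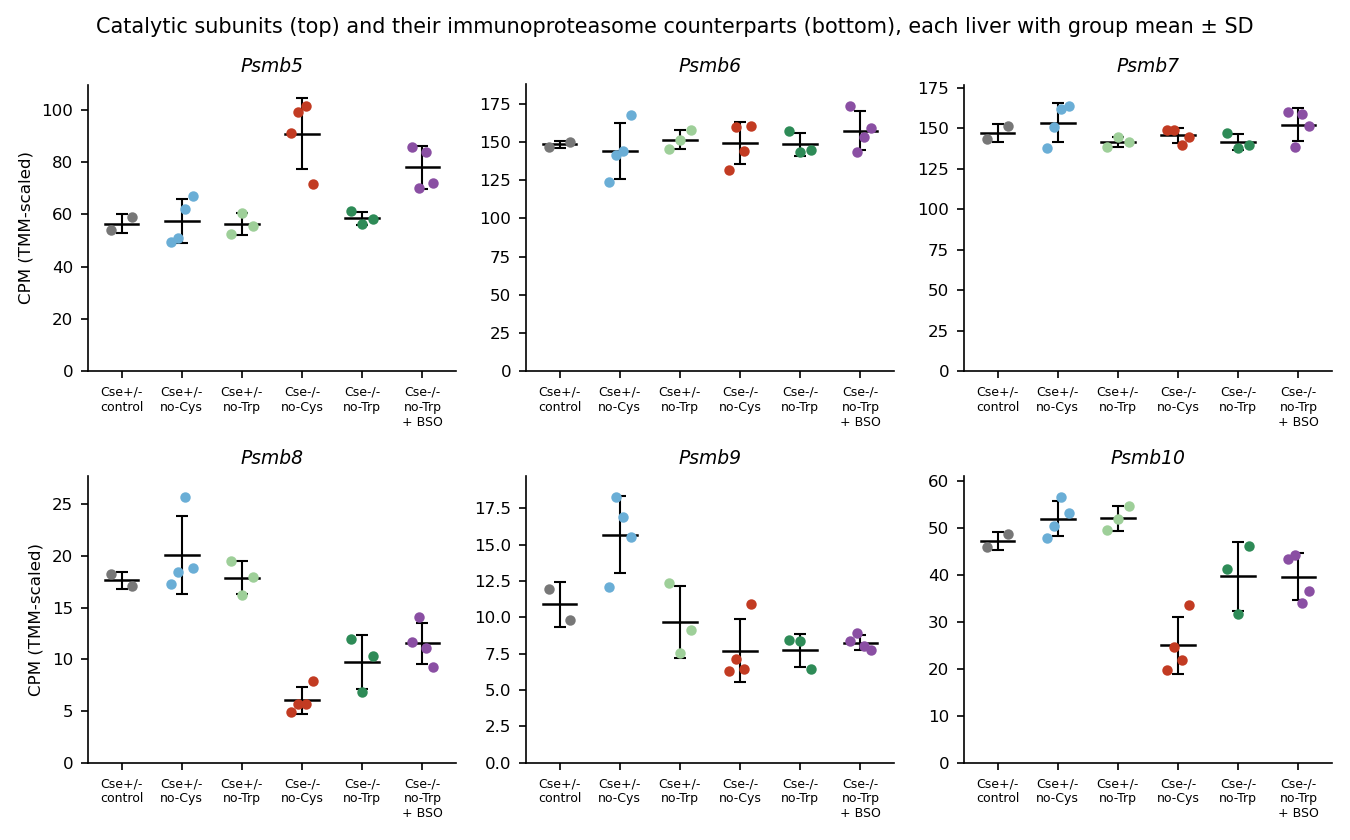
CPM of the catalytic subunits Psmb5, Psmb6 and Psmb7 and of the subunits that replace them in immunoproteasomes, Psmb8, Psmb9 and Psmb10, in each of the 20 livers by group. Points are livers, and black lines give the group mean ± SD. Psmb5 is highest and Psmb8 and Psmb10 are lowest in the Cse-/- no-Cys group, and the levels of Psmb6 and Psmb7 overlap between all groups.

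In bulk liver, fewer cells of a type and less RNA per cell cannot be told apart, and immune cells express these 3 subunits strongly. All 6 macrophage markers had a log2 fold change below 0 in this comparison (median -0.33), none was called, and their sum was 183 to 239.5 CPM in Cse-/- and 222 to 286 CPM in Cse+/- no-Cys livers. The 7 lymphocyte markers, of which 5 were tested, were also all below 0 (median -0.75), 1 was called (Ptprc, the leukocyte antigen CD45, -0.50), and their sums were 7.01 to 8.43 CPM and 9.34 to 13.5 CPM without overlap. Ms4a1 was at 0 in some Cse-/- no-Cys livers. The 3 bile duct markers were below 0 as well (median -0.73, none called), with sums of 1.89 to 3.32 CPM and 3.34 to 5.68 CPM, and so were the 4 stellate markers (median -0.44, Lrat called at -0.61), with sums of 172 to 209 CPM and 204 to 245.0 CPM. Of the 4 endothelial markers (median -0.09, sums 101 to 117 CPM and 104 to 123 CPM), Lyve1 was called higher (1.15). The part of these cells in the fall of the immunoproteasome subunits was not tested.

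Genes of interferon signalling and class I peptide loading fell alongside. Of 12 tested, 9 were called lower and none higher, against 12.2% and 11.6% of all genes (median -0.61). The largest falls were those of Ifit1 (-1.18) and Irf7 (-1.04), both interferon-induced, and the class I genes B2m (-0.55) and H2-K1 (-0.71) and the peptide transporter genes Tap1 (-0.76) and Tap2 (-0.53) also fell. Erap1, which trims peptides, and Irf1, which drives the immunoproteasome genes, were both at -0.03 and were not called. Against the control diet, Cse+/- livers on no-Cys had values above 0 for 11 of the 12 genes, none called (median 0.19). Tap1 was at 14.2 to 16.4 CPM in Cse-/- no-Cys livers, which included both control values (15.7 and 16.2 CPM), and at 17.1 to 34.9 CPM in Cse+/- no-Cys livers. Between no-Cys and no-Trp in Cse-/- livers 1 of the 12 was called lower (B2m, -0.38) and none higher, against 5.35% and 5.05% of all genes (median -0.24), and Tap1 was at 0.08. At an unadjusted p under 0.05 in edgeR, 7 of the 12 were lower and none higher, against 13.6% and 12.9% of all genes.

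Exons of Psmb9 and Tap1, its neighbour on chromosome 17, overlap on opposite strands. Reads from that overlap cannot be told apart without strand, and 3.85% of the words of Psmb9 occur in Tap1.

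Within Cse-/- livers, no-Cys was compared with no-Trp, which removes another amino acid. Here 10 of 38 members were called higher (26.3%) and 2 lower (5.26%), against 5.05% higher and 5.35% lower over all genes, with a median of 0.21. All 10 had also been called higher between genotypes on no-Cys, and both comparisons use the same 4 Cse-/- no-Cys livers. They were Psmb5, Psmc1, Psmc3, Psmc4, Psmc6, Psmd1, Psmd2, Psmd3, Psmd4 and Psmd11. Psmd3 changed most of the regulatory genes, from 101, 101 and 107.5 CPM on no-Trp to 151, 153, 153 and 157 CPM on no-Cys. There was no overlap (0.57 ± 0.09, adjusted p = 0.000478). Psmb5 was at 56.2, 58.1 and 61.2 CPM on no-Trp, below all 4 no-Cys livers (0.64 ± 0.12, adjusted p = 0.0039).

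In the same comparison the regulatory particle had 9 of 20 genes called (median 0.27) and the constitutive core 1 of 14 (median 0.09). Psmd9 was not called. It was at 79.7, 87.2 and 89.1 CPM on no-Trp, and 3 of the 4 no-Cys livers lay above these and av08 below (0.24 ± 0.12, adjusted p = 0.201). Psmb8 and Psmb10 were the members called lower, by -0.70 ± 0.19 (adjusted p = 0.0266) and -0.67 ± 0.15 (adjusted p = 0.008). Both overlapped: Psmb8 was at 6.86, 10.3 and 11.96 CPM on no-Trp, and its lowest value there lay below that of av08. Psmb10 was at 31.7, 41.4 and 46.1 CPM on no-Trp, with 1 liver below av08. Psmb9 was not called (-0.01, 95% interval -0.42 to 0.40), being at 6.42, 8.35 and 8.42 CPM on no-Trp. Both calls were lost when only these 2 groups were fitted (adjusted p = 0.0988 for Psmb8 and 0.0713 for Psmb10 by edgeR), where the adjusted p over all alternatives was 0.00605 to 0.158 for Psmb8 and 0.000388 to 0.0713 for Psmb10. The call of Psmb8 was also lost without any 1 of av05, av06, av07 and the no-Trp livers av14 and av16, and calls of Psmc3, Psmc6 and Psmd1 were also lost without single livers.

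BSO was added to no-Trp in Cse-/- mice to lower glutathione while the diet still held cysteine. Against no-Trp alone, 1 of 38 members was called higher, Psmd3, and none was called lower, against 0.488% and 0.305% over all genes, with a median of 0.10. Psmd3 was at 120.1, 139.5, 143.5 and 155 CPM with BSO, above all 3 livers without it (0.43 ± 0.09, adjusted p = 0.0181). The call was lost without av09 or av11 of the BSO livers and without av15 or av16 of the others, which left none called. At an unadjusted p under 0.05, 10 members were higher and none lower in edgeR, against 6.54% and 6.51% of all genes, and DESeq2 called 3 higher and none lower. Psmb5 was at 70.1, 71.9, 83.95 and 86.0 CPM with BSO and did not overlap the livers on no-Trp alone, but was not called (0.41 ± 0.12, adjusted p = 0.122). The immunoproteasome subunits were not called: Psmb8 differed by 0.23, Psmb9 by 0.10 and Psmb10 by 0.00, with 95% intervals of -0.16 to 0.62, -0.31 to 0.50 and -0.31 to 0.30.

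Set directly against no-Trp with BSO, no-Cys in Cse-/- livers had 1 member called higher and 2 lower, against 1.33% and 1.42% over all genes (median 0.05). At an unadjusted p under 0.05, 9 members were higher and 2 lower, against 9.77% and 10.3% of all genes. The median of the 20 regulatory particle genes was 0.18, with 19 above 0, and that of the 14 core genes was -0.01. Psmc4 was higher on no-Cys, with the BSO livers at 89.6, 97.5, 97.9 and 103 CPM and no overlap (0.30 ± 0.08, adjusted p = 0.0439). Psmb8 was at 9.29, 11.1, 11.7 and 14.1 CPM with BSO, above all 4 no-Cys livers (-0.93 ± 0.18, adjusted p = 0.0129). Psmb10 was at 34.1, 36.7, 43.3 and 44.3 CPM with BSO, also above all 4 (-0.67 ± 0.14, adjusted p = 0.0189). Psmb5 was not called (0.22, 95% interval -0.02 to 0.46). Without av08 there were 5 members higher in place of 1. Without any other 1 of the 8 livers none was called higher, and without av05 or av06 none was called lower.

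Genotype was also compared on no-Trp. Here 1 member was higher and 1 lower in Cse-/- livers, against 1.40% and 1.24% over all genes. The median was 0.05, and 0.01 to 0.05 over the alternatives, with the lowest value without av19. Psmd1 was at 65.7, 77.4 and 84.7 CPM in Cse-/- and at 48.7, 55.7 and 57.98 CPM in Cse+/- livers, with no overlap (0.49 ± 0.12, adjusted p = 0.0329). Psmb8, at 16.2, 17.98 and 19.5 CPM in the Cse+/- livers, was lower in all 3 Cse-/- livers (-0.87 ± 0.20, adjusted p = 0.0235). Psmb10 was at 49.5, 51.9 and 54.7 CPM in the Cse+/- livers, above the Cse-/- livers without being called (-0.39, 95% interval -0.72 to -0.06). Psmb9 was at 7.52, 9.15 and 12.4 CPM and overlapped (-0.31). The call of Psmd1 was lost without av15, av16, av17, av19 or av20, and that of Psmb8 without av15, av17 or av20, which left none in that direction.

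Whether the genotype effect differed between the diets was tested as an interaction. The genotype effect on Psmc4 was larger on no-Cys by 0.44 ± 0.12 on the log2 scale (adjusted p = 0.0398). It was the only member called (2.63%), with none called in the lower direction, against 1.67% and 2.69% over all genes. At an unadjusted p under 0.05, 7 members were higher and 3 lower, against 9.06% and 10.4% of all genes, and DESeq2 called 5 higher and 2 lower. The differences of Psmd9 (0.59, adjusted p = 0.0517), Psmb5 (0.61, adjusted p = 0.0532), Psmb8 (-0.87, adjusted p = 0.0661) and Psmb10 (-0.67, adjusted p = 0.0716) lay just past the threshold, so for these genes a difference between diets was not shown. The call of Psmc4 was lost without most single livers, while 5 members were called higher without av04 or without av08, and 3 lower without av08 and 2 without av15.

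In Cse+/- livers, which can make cysteine, few members were called. On no-Cys against the control diet no member was called higher and 1 lower, against 0.989% and 1.19% over all genes (median 0.06). This was Psmd9, at 95.8 and 88.9 CPM on the control diet, above all 4 Cse+/- livers on no-Cys (-0.53 ± 0.13, adjusted p = 0.0415). The call was lost without av01, av02 or av03 and without either control liver, av21 or av22. The Cse-/- no-Cys livers, at 75.1 to 113 CPM, spanned both control values. At an unadjusted p under 0.05, 2 members were higher and 1 lower, against 8.43% and 8.21% of all genes, and DESeq2 called none higher and 1 lower. Psmb9 was at 9.82 and 11.96 CPM on the control diet, below all 4 Cse+/- livers on no-Cys, and was not called (0.53, 95% interval 0.07 to 0.99).

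On no-Trp against the control diet no member of 38 was called in either direction in Cse+/- livers, against 0.00678% higher and 0.0407% lower over all genes (median -0.02). The count was also 0 in both directions at an unadjusted p under 0.05 in edgeR, against 4.42% and 4.87% of all genes, and among the calls of DESeq2. With 2 control livers, the 95% intervals of the 14 constitutive core genes ran from -0.32 to 0.32 at their widest, and those of the 20 regulatory genes from -0.51 to 0.36.

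**Figure D5:**
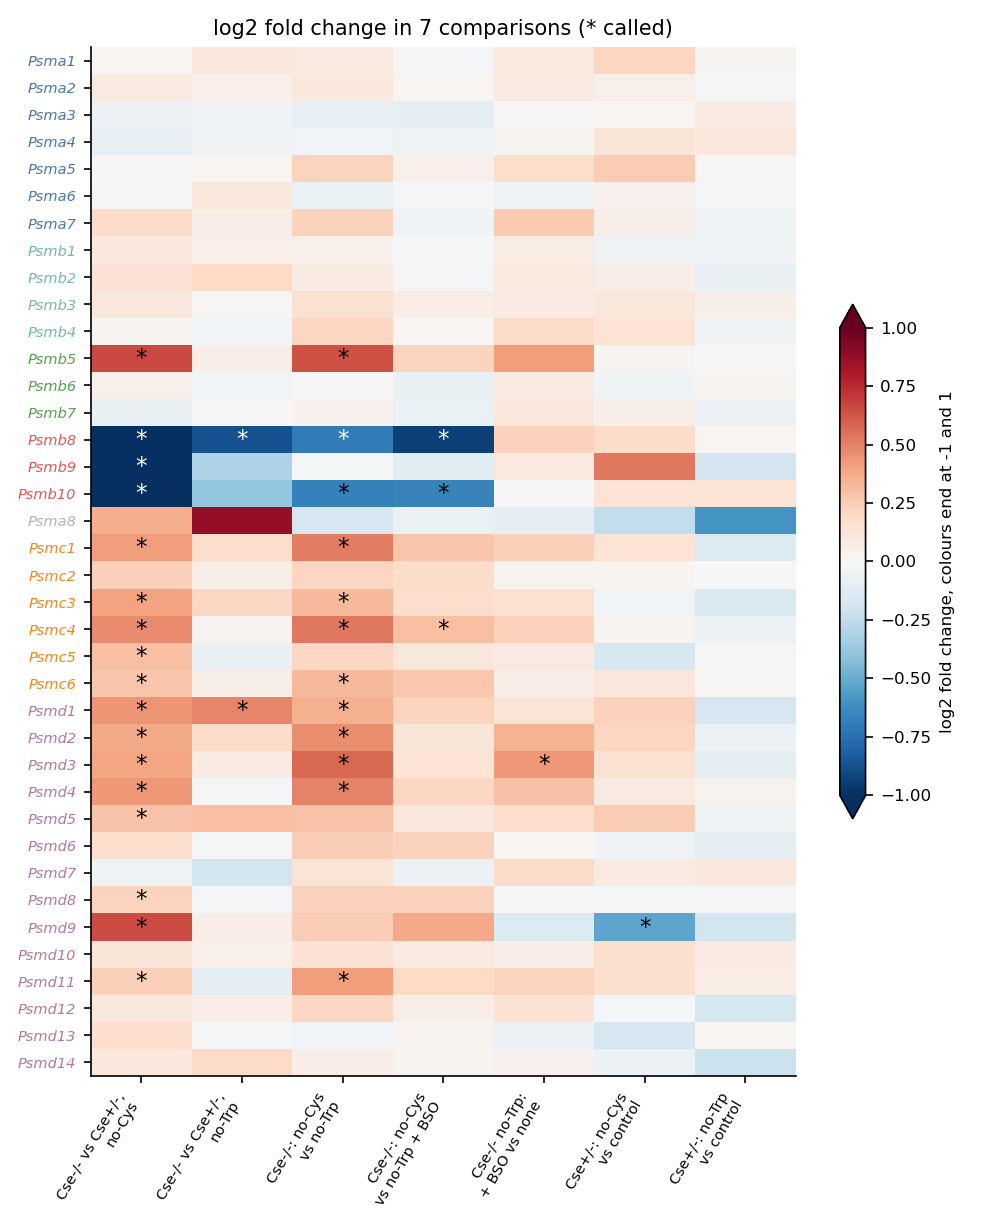
Log2 fold change (colour, ending at -1 and 1) of the 38 tested members (rows, by class) in 7 comparisons (columns), with an asterisk for each call. The comparisons share livers and so are not independent. The calls fall mostly in the Psmc and Psmd rows and in Psmb5, Psmb8 and Psmb10, in the columns with Cse-/- no-Cys livers.

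Of 10 genes for proteins that assemble, activate or inhibit the proteasome, tested between genotypes on no-Cys, none was called higher and 2 lower, against 11.6% and 12.2% of all genes (median 0.07): Psme1 (-0.55) and Psme2 (-0.45), the subunits of the interferon-induced activator PA28. Psme1 was also lower on no-Cys than on no-Trp with BSO (-0.39). At an unadjusted p under 0.05, 2 of the 10 were higher, against 17.8% of all genes. The assembly chaperone Psmg2 had the highest value (0.32), and Pomp, the maturation factor of the core, was at -0.11.

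Of 14 genes for proteins that bind the regulatory particle or carry substrates to it, 6 were called higher and 1 lower between genotypes on no-Cys, against 11.6% and 12.2% of all genes (median 0.27). Among them the shuttle factors Rad23b, Ubqln1 and Ubqln2 rose by 0.34, 0.31 and 0.34, and the proteasome-bound Txnl1 and Ube3c by 0.44 and 0.38. Sem1, a small lid subunit whose symbol lies outside the rule, fell (-0.38). Against no-Trp within Cse-/- livers, 6 were called higher and 1 lower, against 5.05% and 5.35% of all genes (median 0.32), with Sem1 lowest (-0.55). With BSO against without, none was called, 3 were higher and none lower at an unadjusted p under 0.05, against 6.54% and 6.51% of all genes (median 0.11).

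Of 10 regulators of proteasome levels and location, 4 were called higher and 2 lower between genotypes on no-Cys, against 11.6% and 12.2% of all genes. Nfe2l1, the gene of NRF1, was not called (0.28), nor were the genes that process NRF1, Ddi2, its protease (0.06), and Ngly1, which removes its sugars (0.19), while Vcp, which extracts it from the membrane, rose by 0.25. Of the small MAF partners Mafk rose by 0.65 and Mafg by 0.48, and Maff was not called (0.32). Nfe2l2, the gene of NRF2, was called lower (-0.41), and its inhibitor Keap1 rose by 0.22. Nfe2l2 was also called higher in Cse+/- livers on no-Cys than on the control diet (0.67), and its genotype effect was lower on no-Cys than on no-Trp in the interaction (-0.68). It was at 53.5 to 66.0 CPM in Cse-/- no-Cys livers, above both control livers (44.2 and 52.2 CPM), and at 65.8 to 86.8 CPM in Cse+/- no-Cys livers. Akirin2, the factor that carries proteasomes into the nucleus, fell by 0.37. None of the 10 was called in the comparisons of no-Cys with no-Trp or of BSO with no BSO within Cse-/- livers. At an unadjusted p under 0.05, 1 was higher and 3 lower in the first of these, against 12.9% and 13.6% of all genes, and 2 higher and 1 lower in the second, against 6.54% and 6.51%.

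Of 6 genes of ubiquitin and its activation, Uba1, the main activating enzyme, rose between genotypes on no-Cys (0.21) and none fell (median 0.155), so that 1 of 6 was called higher, against 11.6% of all genes. The highest value was that of Uba6 (0.29), which was not called.

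The targets of NRF2, some of which the study itself names for these livers so that their direction is no independent evidence, are set beside the members because BSO blocks the synthesis of glutathione and cysteine is one of its building blocks. Of 9 tested, 6 were called higher and none lower between genotypes on no-Cys, against 11.6% and 12.2% of all genes (median 0.65), with Nqo1 at 2.29 and Gclm at 0.07 as the highest and lowest. With BSO against no-Trp alone 6 were again called higher, against 0.488% of all genes (median 0.88, Gstm1 at 2.03 highest and Hmox1 at 0.27 lowest), where 1 of 38 proteasome members was. Between no-Cys and no-Trp with BSO none of the 9 was called, 1 was higher and none lower at an unadjusted p under 0.05, against 9.77% and 10.3% of all genes (median -0.11).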

How the data were processed

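RNA of 20 livers was measured by sequencing of poly(A) RNA. Per the labels and the methods of the study, the authors aligned the reads with HISAT2 2.1.0 to GRCm38 and counted them per gene with HTSeq 0.11.0, and the deposited values are raw counts. The annotation release and the strand setting are not given in the sources used here. Columns were assigned to groups through the study's list of mice, not to single samples, and 1 column of values was not used. Gene symbols and exons came from a GENCODE annotation and promoters from RefSeq, both of GRCm38.

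The members and gene lists were chosen with earlier results of these data known. Genes with enough reads (edgeR's filterByExpr, minimum count 10, total 15) were kept, which left 14759. All 20 livers entered 1 quasi-likelihood fit in edgeR 4.0.16 (R 4.3.3) with TMM factors, 14 residual and 19.61 total degrees of freedom. P-values were two-sided and Benjamini-Hochberg adjusted over all genes tested, and called genes had an adjusted p under 0.05. Standard errors and 95% intervals were computed from the F statistic. Fold changes are log2. The livers were separate mice. No library pair of a group agreed within sampling noise (chi-square per gene 9.60 to 64.2 over 25 pairs). Shared words are 61-base stretches of a gene's exons found in other genes, the length of a read.

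Every member is named. Full values were given for Psmb5 to Psmb10 and for the 3 largest and 3 smallest called changes in each direction between genotypes on no-Cys. Of other lists the highest and lowest genes and every regulator were named, and others were added after their values were seen. Some genes and promoter motifs that these rules or searches cover are not reported here. Alternatives were DESeq2 1.42.0, RLE and upper-quartile factors, other filters, an adjusted p under 0.01, fits restricted to the livers of a comparison, thinning to 11785740 counts, and leaving out each liver. In a test on simulated data for the genotype comparison on no-Cys (14475 genes), 72% of 2-fold and 87% of 4-fold changes were recovered, with 8 false calls. Changes below 2-fold, the size of every rise called among the members, were not simulated.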

Additional observations from a re-analysis of the deposited data

Results flagged for a closer look

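In a group of 4 livers, a liver was listed where its gap to the nearest of the others took more of the whole range than Dixon's 95% critical value allows. Over 38 members and 3 such groups, 6 of 114 cases (5.26%) met this, where chance gives about 1 in 20. Psmd9 was at 75.1 CPM in the Cse-/- no-Cys liver av08 and at 107.8 to 113 CPM in the other 3. Psma7 was at 117 CPM in the BSO liver av10 (others 137 to 139) and Psmd5 at 27.0 CPM in the same liver (others 35.35 to 35.7). Psmb2 was at 72.4 CPM in the BSO liver av09 (others 66.4 to 67.1). In the Cse+/- no-Cys group, Psma3 was at 117 CPM in av03 (others 102.2 to 102.4) and Psma8 at 1.26 CPM in av01 (others 0.212 to 0.311). Psmc4 was the member whose genotype effect differed between no-Cys and no-Trp by the interaction test of edgeR (0.44 on the log2 scale, adjusted p = 0.0398), a call that single livers remove.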

How the results depend on the processing

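Of 37 member results called over the 8 comparisons, 20 kept their call in every alternative run, 137 of 579 settings lost a call and none reversed a direction. Between genotypes on no-Cys 13 of 17 calls were kept throughout. There the count of members higher was 14, and 10 to 13 with 1 liver left out, and the count lower stayed at 3. Between no-Cys and no-Trp in Cse-/- livers the count higher was 10, and 7 to 12 with 1 liver left out. The count lower was 2, became 1 at an adjusted p under 0.01 and 0 when the fit held the compared livers alone, and was 1 to 2 with 1 liver left out. With BSO against without, the count higher was 1, became 0 at the stricter threshold and with the compared livers alone, was 3 in DESeq2, and was 0 to 1 with 1 liver left out. Between no-Cys and no-Trp with BSO, the count higher was 1, became 0 at the stricter threshold, without a filter, with the compared livers alone and after thinning, was 4 in DESeq2, and was 0 to 5 with 1 liver left out, and the count lower was 2, became 0 at the stricter threshold, and was 0 to 2 with 1 liver left out. Between genotypes on no-Trp the counts were 1 higher and 1 lower, both became 0 at the stricter threshold, with the compared livers alone and after thinning, and both were 0 to 1 with 1 liver left out. For Cse+/- no-Cys against the control diet the count lower was 1, became 0 at the stricter threshold, with upper-quartile factors, with the compared livers alone and after thinning, and was 0 to 1 with 1 liver left out. For the interaction the count higher was 1, became 0 at the stricter threshold and with the compared livers alone, 2 without a filter and after thinning, 4 with a mean CPM of at least 1 and 5 in DESeq2, and was 0 to 5 with 1 liver left out, and the count lower was 0, became 2 without a filter and in DESeq2, and was 0 to 3 with 1 liver left out. The median log2 fold change of the members was 0.10 to 0.19 over the alternatives between genotypes on no-Cys, 0.17 to 0.22 between no-Cys and no-Trp in Cse-/- livers, 0.07 to 0.15 with BSO against without, 0.03 to 0.10 between no-Cys and no-Trp with BSO, 0.01 to 0.05 between genotypes on no-Trp, 0.01 to 0.11 and -0.04 to 0.00 for no-Cys and no-Trp against the control diet in Cse+/- livers, and 0.04 to 0.14 for the interaction. The cause of these changes was not tested.

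No paired analysis was possible because the columns of the count table carry no replicate numbers. With 2 control livers, and library totals from 11785740 counts, small differences on the control diet and in Psma8 were not detectable.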
